A study of Mus musculus with 6 samples.

Results

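Polyamine metabolism was followed here through 9 genes that encode its main enzymes and regulators: Odc1, Amd1, Srm, Sms, Azin1, Oaz1, Oaz2, Sat1 and Smox. The members were taken by gene symbol from the deposited expression table, which lists 54532 genes. All 9 were found once each, and all 9 passed the filter on low values that left 12654 genes for testing. The samples were 3 RNA sequencing libraries labelled as knockout of Ptpmt1 (KO) and 3 labelled wild type (WT). They were made from mouse CD8 T cells of spleen and lymph nodes that had been activated for 3 days in culture with beads carrying antibodies to CD3 and CD28. The product of Ptpmt1 is a phosphatase of mitochondria that acts in the synthesis of cardiolipin. Both groups carried the same treatment, and no unactivated cells were analysed here. The sources used here do not give how the knockout was made, whether it was restricted to a cell type, or the age and sex of the mice.

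Polyamines are small, positively charged molecules that bind nucleic acids and are needed for translation and cell growth. Putrescine is made from ornithine, and is then extended to spermidine and spermine with aminopropyl groups taken from decarboxylated S-adenosylmethionine. The pathway controls itself: antizymes bind ornithine decarboxylase and send it to the proteasome, the antizyme inhibitor sets it free, and the catabolic enzymes acetylate or oxidise the products. Activated T cells are known to switch this pathway on together with growth, in part through the transcription factor MYC.

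Much of that control is written into the transcripts themselves. Antizyme is made only when ribosomes shift frame at an early stop codon, a shift that polyamines promote. The sites in Oaz1 and Oaz2 are shown because both genes are members and this step lies beyond what RNA levels can show. The capitals mark the last codon read in the initial frame and the stop codon that is bypassed, in 30 bases of coding sequence from GENCODE M21 transcripts (mm10).
Oaz1, chr10:80828280-80828309, plus strand: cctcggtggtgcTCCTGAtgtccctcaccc
Oaz2, chr9:65686257-65686286, plus strand: cctctgtggtgcTCCTGAtgcccctcaccc
The Oaz1 and Oaz2 sites were identical at 28 of 30 bases. The stop codon followed 68 codons in Oaz1 and 32 codons in Oaz2, counted from the annotated start codon.

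Amd1 carries a comparable element near the 5′ end of its transcript, a short upstream open reading frame on which ribosomes are known to stall when polyamines are plentiful. It lies within the 300-base promoter window of RefSeq (GRCm38.p6), which spans 250 bases before to 50 bases after the annotated start. The capitals mark that reading frame, 6 codons and a stop, which begins 14 bases into the transcript.
Amd1, chr10:40302139-40302438, minus strand: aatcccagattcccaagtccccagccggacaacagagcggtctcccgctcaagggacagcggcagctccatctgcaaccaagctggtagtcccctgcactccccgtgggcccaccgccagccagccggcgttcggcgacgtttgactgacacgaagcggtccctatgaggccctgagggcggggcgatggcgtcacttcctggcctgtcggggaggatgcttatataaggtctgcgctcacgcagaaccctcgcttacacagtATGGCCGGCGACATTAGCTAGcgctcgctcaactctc

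Promoter windows were listed for 7 of the 9 members, 8 windows in all, and none was listed for Srm or Azin1. The hexamer CACGTG, the E-box that MYC and its partner MAX are known to bind and which reads the same on both strands, was searched in them. It occurred in 1 of the 8 windows, against 7.15% of all 32851 windows. That window belongs to the upstream start of Sms and is shown for the motif, in capitals, which begins 196 bases before the start. The other Sms window and the Odc1 window did not hold these letters. Bases outside the windows, such as introns farther into the genes, were not searched, so motifs there are not covered.
Sms, chrX:157492238-157492537, minus strand: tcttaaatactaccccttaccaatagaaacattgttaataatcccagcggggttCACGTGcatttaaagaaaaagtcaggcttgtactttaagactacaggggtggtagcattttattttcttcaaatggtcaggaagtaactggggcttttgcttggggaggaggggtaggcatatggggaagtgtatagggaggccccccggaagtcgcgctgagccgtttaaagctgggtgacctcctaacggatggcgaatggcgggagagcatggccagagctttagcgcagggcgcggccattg

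Values are read counts per length of the gene and per size of the library (FPKM), and differences are log2 fold changes of KO over WT on log2(FPKM + 0.5), a scale that understates changes of low genes. They were tested with limma over all 12654 genes, with Benjamini-Hochberg adjustment. The reads rebuilt from the table summed to 14932604 to 16819913 per library. KO replicate 3 stood apart: it had 0 reads of Xist and 1837 of Ddx3y, a gene of the Y chromosome, while in each of the other 5 Xist reads numbered 3513 or more and Ddx3y reads 0. These reads mark KO replicate 3 as male and the other 5 libraries as female. Leaving out KO replicate 3 thus leaves only female libraries, and the part of sex in the results was not tested. Mitochondrial genes took 4.40%, 7.53% and 2.38% of reads in KO replicates 1 to 3, against 4.76%, 4.21% and 3.38% in WT replicates 1 to 3. The 6 markers of CD8 T cells were present in every library, with a summed level of 828 to 1528 FPKM in KO and 1328 to 1719 FPKM in WT. Of these, 3 were lower in every KO library than in every WT library, as were 13.3% of all genes tested. Cd8a had 109 to 145 FPKM in KO against 182 to 219 FPKM in WT. Trac had 125 to 189.6 FPKM in KO against 243 to 269.6 FPKM in WT, and Cd3e had 20.4 to 31.9 FPKM in KO against 37.7 to 42.7 FPKM in WT. The markers Cd8b1, Cd3d and Cd3g overlapped between the groups. The 4 B cell markers were also lower in sum, at 13.4 to 15.0 FPKM in KO against 18.6 to 25.0 FPKM in WT, most of it Cd79b. The part of these marker differences in the results on polyamine genes was not tested. The gamma-delta chain Trdc stood at 1.51, 3.79 and 22.2 FPKM in KO replicates 1 to 3 against 3.92, 3.17 and 7.90 FPKM in WT replicates 1 to 3. Of the 3 neutrophil markers, Ly6g was at 0 in every library. S100a8 had 23, 0 and 22 reads in KO replicates 1 to 3, against 10, 1 and 23 reads in WT replicates 1 to 3. S100a9 had 2, 0 and 6 reads in KO replicates 1 to 3, against 13, 2 and 25 reads in WT replicates 1 to 3. Ptpmt1 itself averaged 1.36 ± 0.314 FPKM in KO and 3.90 ± 0.199 FPKM in WT (SD, n = 3 each), with no overlap between the groups. Its log2 fold change was -1.26 (SE 0.198) at an adjusted p of 0.0884.

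All 4 enzymes of polyamine synthesis, and the antizyme inhibitor Azin1, were higher in every KO library than in every WT library. The means differed most for Srm and Odc1, at 2.78 and 2.41 times the WT mean. Both antizymes and both catabolic enzymes overlapped between the groups. Their log2 fold changes were below 0, but those of Oaz1 and Sat1 changed sign when single samples were left out. None of the 9 members passed the threshold of an adjusted p of 0.05, which 0.0395% of all genes passed (5 genes). At an unadjusted p under 0.05 there were 5 members higher in KO, where 11.5% of all genes tested were, and 0 lower, where 10.2% were. The groups did not overlap, with KO higher, for the same 5 members, against 14.5% of all genes. The median log2 fold change was 0.46 over the members and 0.03 over all genes. In cell populations such as these, more RNA per cell and more cells that express a gene cannot be told apart.

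**Figure D1:**
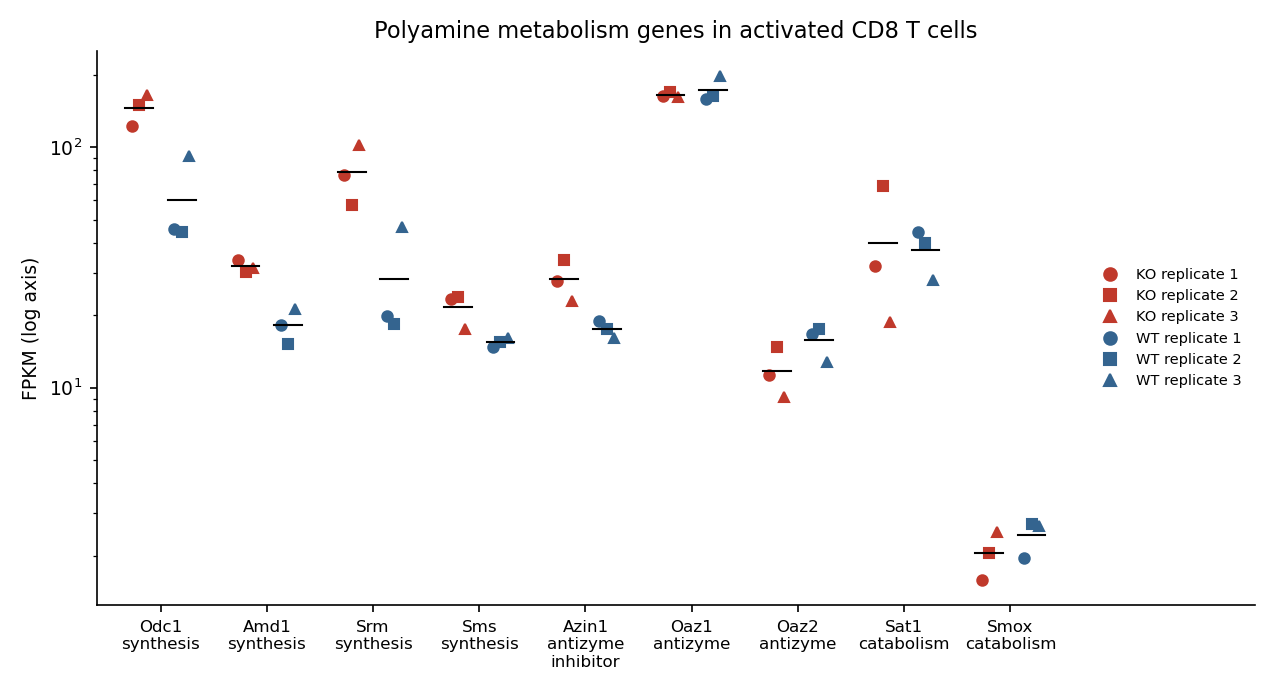
FPKM of the 9 members on a log axis in KO (red, left) and WT (blue, right), 1 symbol per library with circles, squares and triangles for replicates 1 to 3 and bars at the group means. For Odc1, Amd1, Srm, Sms and Azin1 every KO library lies above every WT library, whereas Oaz1, Oaz2, Sat1 and Smox overlap between the groups.

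Odc1 (ENSMUSG00000011179, chr12:17544794-17551505, plus strand) encodes ornithine decarboxylase, which makes putrescine and is the rate-limiting enzyme of the pathway. It had 123, 150.1 and 164 FPKM in KO replicates 1 to 3, against 45.6, 44.3 and 91.6 FPKM in WT replicates 1 to 3. WT replicate 3 lay between the other WT libraries and the lowest KO library, and the groups did not overlap. The means were 145.6 ± 21.2 FPKM in KO and 60.5 ± 27.0 FPKM in WT (SD, n = 3 each). This gave a log2 fold change of 1.33 (SE 0.311, 95% interval 0.60 to 2.07, adjusted p = 0.107). Odc1 was measured with 2319 to 10091 reads per library.

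Amd1 (ENSMUSG00000075232, chr10:40287458-40302186, minus strand) encodes S-adenosylmethionine decarboxylase, the source of the aminopropyl groups. It had 34.0, 30.4 and 31.3 FPKM in KO replicates 1 to 3, against 18.2, 15.1 and 21.2 FPKM in WT replicates 1 to 3. The KO libraries lay close together and well clear of WT. The log2 fold change of 0.81 had the smallest adjusted p among the members (SE 0.172, 95% interval 0.40 to 1.21, adjusted p = 0.0976 with limma). Mouse has a near-identical copy of this gene, Amd2, with 99.6% identity over 3202 bases, and Amd2 was listed at a mean of 0.576 ± 0.123 FPKM in KO and 0.473 ± 0.241 FPKM in WT (SD, n = 3 each). How reads matching both were shared is not given in the sources used here.

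Srm (ENSMUSG00000006442, chr4:148591503-148594993, plus strand) encodes spermidine synthase, which adds the aminopropyl group to putrescine. It had 76.4, 57.5 and 102 FPKM in KO replicates 1 to 3, against 19.9, 18.4 and 46.6 FPKM in WT replicates 1 to 3. The groups did not overlap, but both were wide: WT replicate 3 stood above the other WT libraries, and KO replicate 3 above the other KO libraries. The means were 78.6 ± 22.4 FPKM in KO and 28.3 ± 15.9 FPKM in WT (SD, n = 3 each). Srm thus had the highest log2 fold change of the members, 1.55 (SE 0.391, 95% interval 0.62 to 2.48, adjusted p = 0.113). The same libraries were highest in their groups for the gamma-delta markers, of which Trdc and Sox13 were found and Trgc1 was not matched: their summed level ran from 1.56 to 22.5 FPKM in KO and from 3.92 to 8.13 FPKM in WT. Its part in this result was not tested.

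Sms (ENSMUSG00000071708, chrX:157443855-157492287, minus strand) encodes spermine synthase, which carries out the next aminopropyl transfer. It had 23.3, 23.9 and 17.6 FPKM in KO replicates 1 to 3, against 14.7, 15.5 and 16.1 FPKM in WT replicates 1 to 3. KO replicate 3, the library without Xist reads, was only slightly above the highest WT library. Its log2 fold change was 0.46 (SE 0.171, 95% interval 0.06 to 0.86, adjusted p = 0.189), the smallest among the 4 enzymes of synthesis. A processed pseudogene on the same chromosome, Sms-ps, matched the Sms transcript at 100% identity over 1101 bases and was counted with 421 to 710 reads per library, against 1430 to 2208 reads for Sms. Sms-ps had 41.0, 36.9 and 34.6 FPKM in KO replicates 1 to 3, against 26.6, 24.9 and 22.9 FPKM in WT replicates 1 to 3 (log2 fold change 0.59, SE 0.152). Reads of the gene and of this copy cannot be told apart within the shared bases.

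Azin1 (ENSMUSG00000037458, chr15:38487427-38519266, minus strand) encodes antizyme inhibitor, a relative of ornithine decarboxylase without its activity that holds antizyme back from the enzyme. It had 27.7, 33.8 and 22.9 FPKM in KO replicates 1 to 3, against 19.0, 17.5 and 16.0 FPKM in WT replicates 1 to 3. Its order among the libraries differed from that of Srm: KO replicate 2 was highest, and in each group replicate 3 was lowest. The means were 28.2 ± 5.47 FPKM in KO and 17.5 ± 1.46 FPKM in WT (SD, n = 3 each). This corresponds to a log2 fold change of 0.65 (SE 0.187, 95% interval 0.21 to 1.10, adjusted p = 0.130). An antisense gene overlaps Azin1 by 481 bases and had no reads in any library.

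The antizymes did not share this pattern. Oaz1 (ENSMUSG00000035242, chr10:80826656-80829290, plus strand), the main antizyme, had 163, 170.2 and 161 FPKM in KO replicates 1 to 3, against 159, 163 and 198 FPKM in WT replicates 1 to 3. Apart from WT replicate 3 the libraries lay within 159 to 170.2 FPKM. The log2 fold change was -0.06 (SE 0.176, 95% interval -0.48 to 0.35, adjusted p = 0.859), and its sign turned to 0.036 without WT replicate 3. Oaz2 (ENSMUSG00000040652, chr9:65668001-65690300, plus strand), a second antizyme of lower level, had 11.2, 14.7 and 9.15 FPKM in KO replicates 1 to 3, against 16.7, 17.6 and 12.8 FPKM in WT replicates 1 to 3. The highest KO library exceeded the lowest WT library, and the log2 fold change of -0.42 had an interval from -0.94 to 0.10 (SE 0.221, adjusted p = 0.309).

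Sat1 (ENSMUSG00000025283, chrX:155213132-155216449, minus strand) encodes the acetyltransferase that marks spermidine and spermine for export or oxidation. It varied more within KO than any other member, with 32.2, 68.7 and 18.7 FPKM in KO replicates 1 to 3, against 44.3, 39.8 and 28.0 FPKM in WT replicates 1 to 3. KO replicate 2 held the highest value and KO replicate 3 the lowest, and the WT libraries lay between them. The log2 fold change was -0.08 (SE 0.453, 95% interval -1.15 to 0.99, adjusted p = 0.932). It was 0.35 without KO replicate 3, 0.05 without WT replicate 1 and -0.57 without KO replicate 2, so these libraries give no direction for Sat1. The share of mitochondrial reads, given above, ordered the libraries as Sat1 did within KO and within WT, and its part in this result was not tested.

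Smox (ENSMUSG00000027333, chr2:131491496-131525922, plus strand), the spermine oxidase that turns spermine back into spermidine, was the lowest member. It had 1.58, 2.05 and 2.50 FPKM in KO replicates 1 to 3, against 1.96, 2.71 and 2.66 FPKM in WT replicates 1 to 3. The groups overlapped, with a log2 fold change of -0.21 (SE 0.221, 95% interval -0.74 to 0.31, adjusted p = 0.602). Only 97 to 182 reads per library stood behind it.

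**Figure D2:**
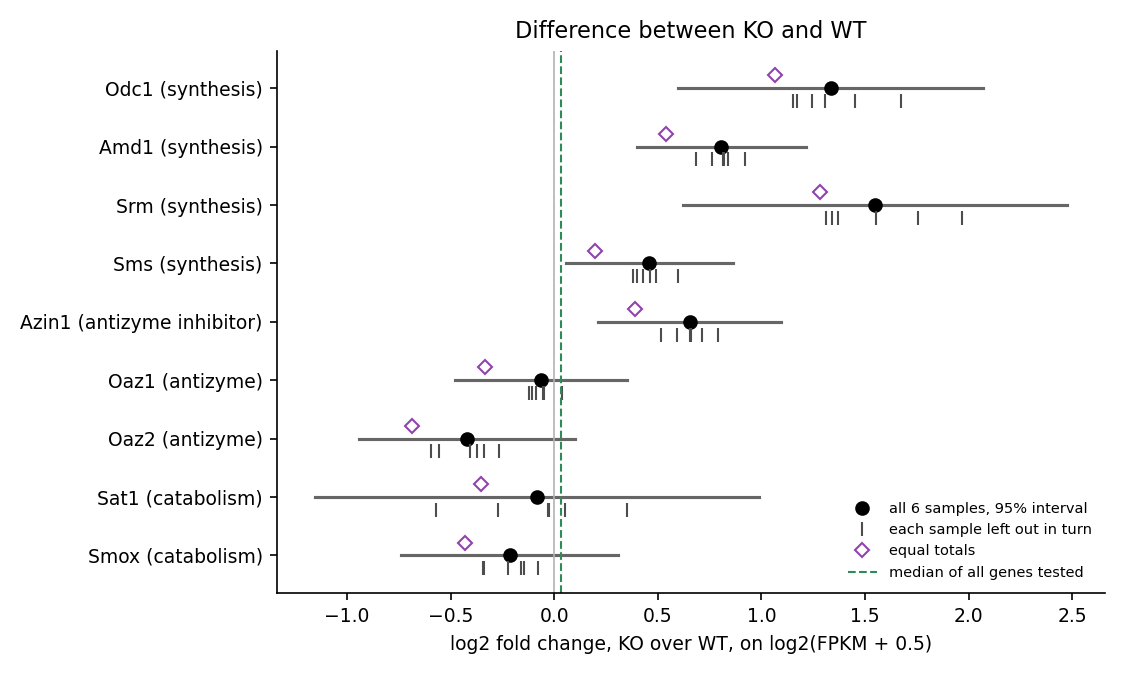
Log2 fold change of KO over WT for each member (black points) with its 95% interval, the values with each sample left out in turn (ticks below), the value with every library set to the same total (open diamonds above) and the median of all genes tested (dashed line, 0.03). The 4 synthesis enzymes and Azin1 lie above 0 in all of these, from 0.20 for Sms at equal totals to 1.97 for Srm without WT replicate 3, while Sat1 and Oaz1 take both signs as samples are left out.

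The 5 higher members kept their direction in every alternative run, but their calls depended on which libraries were included. With KO replicate 3 left out, Sms, Amd1 and Azin1 passed the threshold (adjusted p = 0.0402, 0.0413 and 0.0368), 3 of 9 members where 13.7% of all genes passed. Odc1 and Srm still missed it, at adjusted p = 0.0626 and 0.0798. Without KO replicate 3 and WT replicate 3 together, a choice made after seeing the data, all 5 passed, with adjusted p from 0.0334 to 0.0483, where 14.7% of all genes passed. In that comparison of 2 libraries a group the log2 fold changes were 1.58 for Odc1, 1.76 for Srm, 0.93 for Amd1, 0.73 for Azin1 and 0.63 for Sms. With each library set to the same total FPKM, the median of all genes was -0.20. On that scale the log2 fold changes were 1.28 for Srm, 1.06 for Odc1, 0.54 for Amd1, 0.39 for Azin1 and 0.20 for Sms, all above that median, and -0.34 for Oaz1 and -0.69 for Oaz2. At equal totals 2 members, Odc1 and Srm, were higher at an unadjusted p under 0.05, against 3.83% of all genes, and 1, Oaz2, was lower, against 12.9%.

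Ratios between members within a library do not depend on how libraries are scaled to each other, and are given as a description. Odc1 FPKM was 0.753, 0.882 and 1.02 times that of Oaz1 in KO replicates 1 to 3, against 0.287, 0.273 and 0.464 times in WT replicates 1 to 3. By FPKM, Odc1 was thus near Oaz1 in KO and below 0.5 times Oaz1 in every WT library. Such levels between genes depend on the gene lengths used, here 3405 bases for Odc1 and 2558 bases for Oaz1. The longest coding transcripts had 2208 bases for Odc1 and 1071 bases for Oaz1, so nearness of the 2 transcripts in number is not shown. The difference in this ratio between KO and WT does not depend on these lengths. The mean log2 ratio of Odc1 to Oaz1 was -0.19 ± 0.217 in KO and -1.59 ± 0.422 in WT (SD, n = 3 each). Azin1 FPKM was 0.170, 0.199 and 0.142 times that of Oaz1 in KO replicates 1 to 3, against 0.119, 0.108 and 0.0812 times in WT replicates 1 to 3. This ratio too was higher in each KO library than in each WT library.

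The other ratios overlapped between the groups. Srm FPKM was 3.27, 2.40 and 5.80 times that of Sms in KO replicates 1 to 3, against 1.35, 1.19 and 2.89 times in WT replicates 1 to 3. WT replicate 3 lay inside the KO range. Odc1 to Sat1 was 3.81, 2.19 and 8.78 in KO replicates 1 to 3 against 1.03, 1.12 and 3.27 in WT replicates 1 to 3. Amd1 to Sms differed by 0.35 on the log2 scale, and Sat1 to Smox by 0.18.

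**Figure D3:**
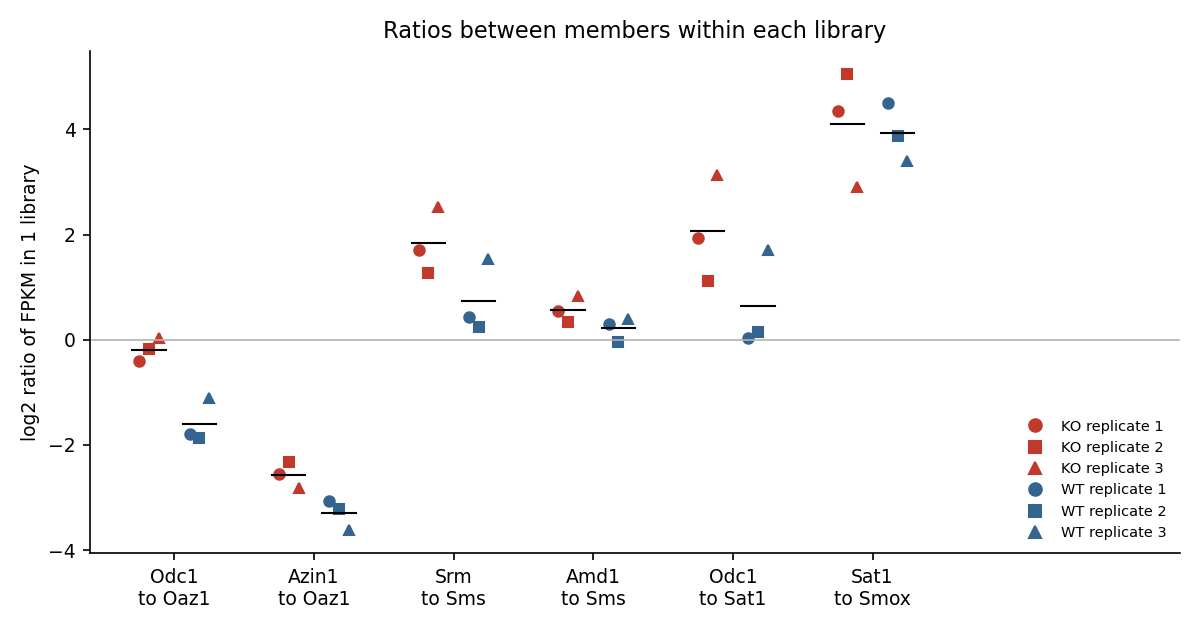
Log2 ratio of FPKM between pairs of members within each library, in KO (red, left) and WT (blue, right), with symbols by replicate and bars at the group means. The ratios of Odc1 to Oaz1 and of Azin1 to Oaz1 do not overlap between the groups, and the other 4 ratios do.

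By FPKM, Oaz1 was the highest member in both groups, at 164.7 ± 4.81 FPKM in KO and 173.0 ± 21.5 FPKM in WT (SD, n = 3 each). The order of genes given here also depends on the gene lengths used. In KO the Odc1 and Oaz1 libraries overlapped, whereas in WT they did not. Srm came next in KO, at 78.6 ± 22.4 FPKM, and its lowest KO library, at 57.5 FPKM, was below the highest KO library of Sat1. In WT the place after Odc1 was held by Sat1, at 37.4 ± 8.39 FPKM, with overlap with Srm. Amd1, Azin1, Sms and Oaz2 filled the middle, with means between 11.7 and 31.9 FPKM in KO and between 15.4 and 18.2 FPKM in WT, and most neighbours among them overlapped. In KO the order ran Amd1, Azin1, Sms and Oaz2, with no overlap between Sms and Oaz2. In WT it ran Amd1, Azin1, Oaz2 and Sms, each overlapping the next.

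Myc, whose product is known to activate transcription of Odc1 and Srm, was compared beside them. It had 35.2, 25.7 and 57.8 FPKM in KO replicates 1 to 3, against 28.2, 26.9 and 41.6 FPKM in WT replicates 1 to 3, and the groups overlapped (log2 fold change 0.24, SE 0.324, adjusted p = 0.699). The log2 fold change of Myc was -0.07 without KO replicate 3, and -0.026 at equal totals, where the median of all genes was -0.20. Within each group the libraries had the same order for Myc as for Srm, with replicate 3 highest and replicate 2 lowest. Across the groups the order differed: WT replicate 3 had more Myc than KO replicates 1 and 2, and less Srm and less Odc1 than either. The part of Myc in the levels of Odc1 and Srm was not tested, and RNA levels do not give the amount or activity of MYC protein.

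Genes whose profile over the 6 libraries was most like that of Odc1 were sought among 4361 genes with a mean of at least 10 FPKM. Predicted genes and pseudogenes were left out of these, so the ranks below do not cover them. The 5 closest were Ei24, Ifi30, Hacd3, Gspt1 and Nxn, with Pearson correlations of 0.993, 0.991, 0.991, 0.988 and 0.987 over 6 libraries that share 2 groups. Gspt1, a translation termination factor, averaged 45.5 ± 2.53 FPKM in KO and 26.0 ± 6.77 FPKM in WT (SD, n = 3 each). Among the members Srm was closest to Odc1 (0.965, rank 82), followed by Amd1 (0.933, rank 226), while Oaz2 ran opposite to it (-0.80). With 6 libraries these values are a description.

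The surrounding pathway was followed through 31 further genes that supply substrates, transport polyamines, salvage by-products or use spermidine. Of these, 18 passed the filter, 17 with a log2 fold change above 0 and 1 below, and the median was 0.51 against 0.03 for all genes, of which 52.4% were above 0. No pathway gene passed the threshold. For 6 of them KO was higher at an unadjusted p under 0.05, against 11.5% of all genes, and for 0 it was lower. The groups did not overlap, with KO higher, for the same 6 of these 18 genes, against 14.5% of all genes. Mat2a alone of these genes passed when KO replicate 3 was left out, at an adjusted p of 0.0344, where 13.7% of all genes passed. Leaving out both replicates 3, Mat2a, Eif5a, Apip, Mtap and Dohh passed, with adjusted p from 0.0334 to 0.0405, which is 5 of 18 genes where 14.7% of all genes passed.

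Substrate supply differed mainly at Mat2a, which encodes the synthetase of S-adenosylmethionine. It had 59.0, 51.4 and 49.3 FPKM in KO replicates 1 to 3, against 21.1, 20.3 and 29.8 FPKM in WT replicates 1 to 3. The groups did not overlap, and the log2 fold change was 1.17 (SE 0.198, adjusted p = 0.0884). Its regulatory subunit gene Mat2b had a log2 fold change of 0.09 (SE 0.259), which was -0.14 without KO replicate 2 and, at equal totals, -0.18 against a median of -0.20 over all genes. Oat, the mitochondrial ornithine aminotransferase, averaged 49.1 ± 6.69 FPKM in KO and 36.3 ± 1.64 FPKM in WT (SD, n = 3 each; log2 fold change 0.42, adjusted p = 0.199). Got1, an aspartate aminotransferase that also acts in methionine salvage, had a log2 fold change of 0.66 (adjusted p = 0.230). The arginases, which make ornithine from arginine, were near the limit of detection: Arg1 had 0 to 12 reads and Arg2 0 to 10 reads per library. Agmat, which is not an arginase but was also listed under substrate supply, had no reads in any library.

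Spermidine is the donor for hypusine, a modified lysine found in the translation factor eIF5A. Eif5a was the most abundant gene followed here, at 782, 711 and 632 FPKM in KO replicates 1 to 3 against 316, 297 and 499 FPKM in WT replicates 1 to 3. WT replicate 3 again lay between the other WT libraries and KO (log2 fold change 0.97, SE 0.268, adjusted p = 0.128). Dhps, the enzyme that transfers the spermidine part, had 15.9, 14.4 and 16.2 FPKM in KO replicates 1 to 3 against 8.67, 10.2 and 12.9 FPKM in WT replicates 1 to 3, also without overlap (log2 fold change 0.55, SE 0.182, adjusted p = 0.161). Dohh, which completes hypusine, and the related factor gene Eif5a2 overlapped between the groups, with log2 fold changes of 0.54 and 0.67.

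Polyamine synthesis releases methylthioadenosine, which is recycled to methionine. Mtap, which opens this salvage, averaged 16.9 ± 1.47 FPKM in KO and 11.5 ± 2.64 FPKM in WT (SD, n = 3 each; log2 fold change 0.56, adjusted p = 0.169). All 5 salvage genes had log2 fold changes above 0, from 0.23 for Mri1 to 0.64 for Apip, with Enoph1 at 0.47 and Adi1 at 0.36. At equal totals Mri1 was at -0.029, above the median of all genes there (-0.20). Apip, with an SE of 0.439 and an adjusted p of 0.430, depended on single libraries: its log2 fold change was 1.09 without KO replicate 3 and 0.32 without WT replicate 3. Mtap and Adi1 had groups that did not overlap, with KO higher, as had 14.5% of all genes.

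Of the transport and breakdown genes, Atp13a3, a transporter known to take up polyamines, averaged 22.6 ± 0.671 FPKM in KO and 20.8 ± 2.66 FPKM in WT (SD, n = 3 each; log2 fold change 0.12, and -0.14 at equal totals, above the median of -0.20 there). Atp13a2, which exports polyamines from lysosomes, averaged 6.25 ± 0.430 FPKM in KO and 7.07 ± 0.461 FPKM in WT (SD, n = 3 each). It was the 1 gene of the pathway that was lower in every KO library than in every WT library, as were 13.3% of all genes, with a log2 fold change of -0.17 (adjusted p = 0.534). Slc3a2, a transporter subunit shared with amino acid carriers, had 29.8, 19.8 and 72.1 FPKM in KO replicates 1 to 3 against 17.9, 19.8 and 26.2 FPKM in WT replicates 1 to 3, and its log2 fold change was 0.72 with KO replicate 3 and 0.20 without it. Paox, a polyamine oxidase, averaged 3.18 ± 0.540 FPKM in KO and 2.49 ± 0.442 FPKM in WT (SD, n = 3 each; log2 fold change 0.30, adjusted p = 0.426).

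**Figure D4:**
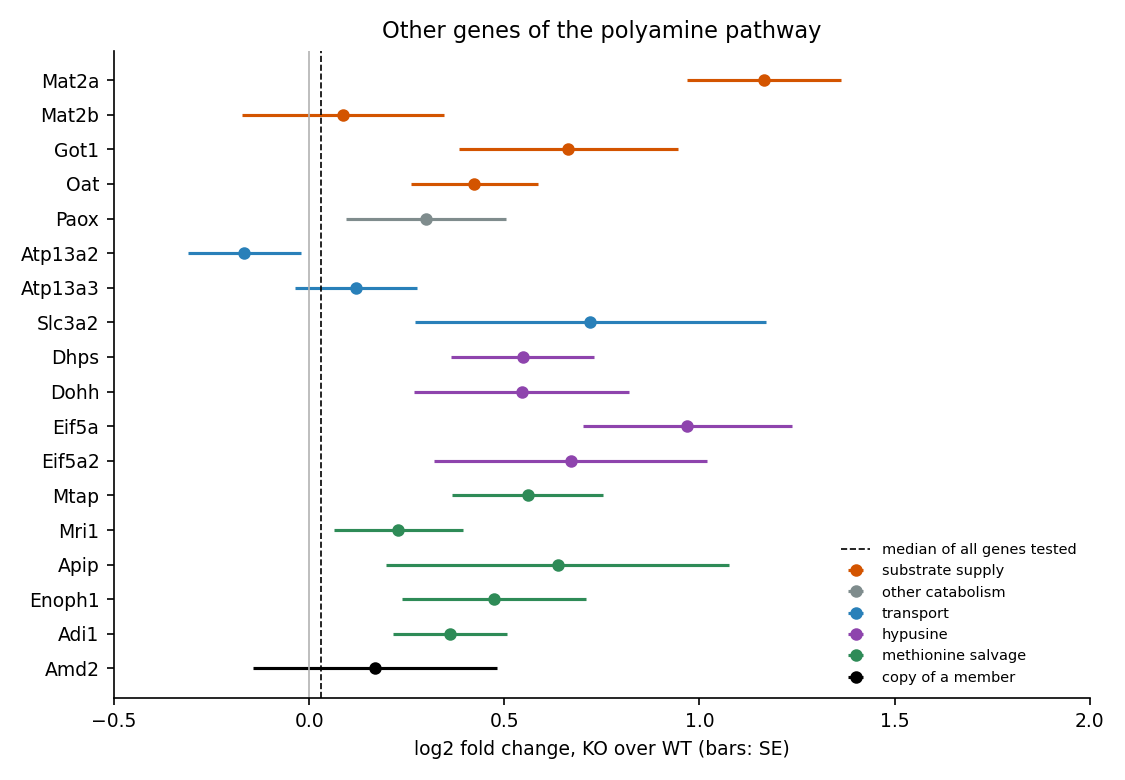
Log2 fold change of KO over WT with its SE for the 18 other pathway genes that passed the filter, coloured by role, with the median of all genes tested as a dashed line (0.03). Mat2a and Eif5a lie farthest to the right, at 1.17 and 0.97, and Atp13a2 alone lies below 0, while at equal totals, where the median of all genes is -0.20, Mat2b, Atp13a3 and Mri1 are below 0 but above that median.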

How the data were processed

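The authors deposited 1 FPKM value per gene and library, with a gene length in bases. The build was mm10, and the tools named, in no stated order, were featureCounts 1.5.0-p3, HISAT2 2.0.5, DESeq2 and Trim Galore, per the submitters' processing notes. Libraries came from a stranded mRNA kit, per the labels' protocols, and the strand setting of the counting is not given in the sources used here. Columns were matched to samples through the sample titles.

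Genes with a mean of at least 0.5 FPKM over the 6 samples were analysed as log2(FPKM + 0.5). Genotype was tested with limma 3.58.1 (R 4.3.3, trended eBayes, 2-sided), all 6 samples in 1 fit. An adjusted p under 0.05 was called. Nothing in the labels says that replicates are separate animals. The Ddx3y and Xist reads show that KO replicate 3 does not share its source with KO replicates 1 and 2, and for the other libraries the spread behind the p-values may be technical. No pair of libraries agreed within sampling noise. By chi-square per gene on the rebuilt reads, KO replicate 3 was nearer to WT replicate 3 (53.7) than to KO replicates 1 (102) and 2 (275). KO replicate 1 was about as near to WT replicate 3 (76.4) as to KO replicate 2 (74.9). Pairs of WT libraries were closer, at 10.7 to 48.6, so the KO libraries did not group together. Exact permutation tests were run for each member and can reach no lower than 0.1 with 3 against 3 samples. They gave 0.1 for the 5 members whose groups did not overlap and 0.2 to 1 for the others. Reads were rebuilt as whole multiples of 1 step per library (tolerance 0.05). Positions are from GENCODE M21. Similar transcripts were found with BLAST 2.17.0 (at least 90% identity over 200 bases).

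The members, the pathway list and the settings were chosen with earlier results of these data known. Named were the 9 members, Ptpmt1, Myc, pathway genes above the filter and the 5 genes most like Odc1, with Arg1, Arg2, Agmat and Azin2 added after their values were seen. The limma step was tested on simulated data. It missed most changes of 2-fold there, so a missed threshold does not show that a gene was unchanged. Plots were made with Python 3.11.15 and matplotlib 3.10.9.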

Additional observations from a re-analysis of the deposited data

How the results depend on the processing

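The count of called genes was 5, and 0 members were called. The gene count was 3 with a pseudocount of 1, 3 with no filter on low values, 14 with no mean-variance trend and 1 with limma-voom on rebuilt reads, with 0 members called each time. Leaving out each sample in turn gave 2 to 1733 genes and 0 to 3 members, the highest of both without KO replicate 3. Leaving out KO replicate 3 and WT replicate 3 together, chosen after seeing the data, gave 1863 genes and 5 members. Sample quality weights gave 7200 genes and 7 members, but their estimation did not converge and put a weight of 36.4 on KO replicate 1 against 0.154 to 1.51 on the others, so that count is not usable. Same-numbered samples deviated together with correlations of 0.132, 0.0665 and 0.331, and WT replicate 1 correlated better with KO replicate 2 (0.267) than with KO replicate 1, so the numbers were not taken as pairs. With the replicate block 12 genes and 0 members were called. Signs turned for Sat1 (-0.57 to 0.35 leaving out 1 sample, 0.052 without WT replicate 1, 0.16 without both replicates 3), Oaz1 (-0.12 to 0.036 leaving out 1 sample, 0.051 without both replicates 3), Myc (-0.070 to 0.51 leaving out 1 sample), Mat2b (-0.14 without KO replicate 2) and Amd2 (-0.0070 without WT replicate 1), on the log2 scale, and the cause was not tested. Equal totals moved the median of all genes to -0.20, and with it Myc (-0.026), Mri1 (-0.029), Atp13a3 (-0.14) and Mat2b (-0.18) below 0, though each stayed above that median. Depth limits Smox, with at most 182 reads, and Amd2, with at most 41.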

Other observations

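Azin2, a relative of Azin1 with known expression in brain and testis, was below the filter and entered no test. It had 3 reads in each of KO replicates 1 and 2 and 87 reads in KO replicate 3, against 3 reads in each of WT replicates 1 and 2 and 42 reads in WT replicate 3. These same libraries held the highest Srm, Myc and Trdc values of their groups.

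Odc1 has processed copies in the mouse genome, and 2 of them had more than 1 FPKM on average. Gm9115 had 79, 61 and 130 reads in KO replicates 1 to 3 against 28, 16 and 65 reads in WT replicates 1 to 3. Gm7993 had 40, 41 and 71 reads in KO replicates 1 to 3 against 11, 16 and 21 reads in WT replicates 1 to 3. Both were highest in replicate 3 of each group, as Odc1 was, and Odc1 had at least 2319 reads in every library. Whether these reads come from Odc1 transcripts was not tested.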
